A study of Mus musculus with 6 samples.

Results

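The 34 miRNAs described here are known from cells other than germ cells, but 5 of them are widely expressed. As a set they are an imperfect check of how pure the round spermatid preparations were. They were chosen by name, as miRNAs known from mesenchymal, endothelial, blood, leukocyte and Sertoli cells, with earlier results of these data known. All 34 were among the 1900 miRNA entries of the deposited small RNA table, which holds 45932 entries in all. The table comes from 3 Miwi knockout (KO) and 3 wild-type (WT) libraries of purified round spermatids, the haploid cells that follow meiosis, from testes of C57BL/6 mice at postnatal day 21. KO mice carry a global knockout of Miwi (Piwil1), in a line revived from frozen sperm. Miwi encodes a PIWI protein that binds pachytene piRNAs, and per the study's design text the round spermatids of KO males develop no further than step 4. The WT libraries are from wild-type mice of the same strain. Neither the way the cells were purified nor the number of animals behind a library is given in the labels. P-values therefore measure the spread between these libraries, which may be technical.

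A miRNA is cut from a hairpin in a longer transcript and guides an Argonaute protein to mRNAs that pair with its seed, bases 2 to 8. Many miRNAs are made in few cell types, so their counts can reveal RNA of other cells in a sorted or sedimented preparation. Testis tubules are wrapped in peritubular smooth muscle cells and lie in a stroma of fibroblasts, vessels and leukocytes, while Sertoli cells line the tubule from within. Few of these miRNAs are strict markers, since germ cells can make some of them too.

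RefSeq sequences (GRCm38.p6) were matched for 26 of the 34 miRNAs. Each of the 26 entries in the table is indexed with 20 nt more than its mature miRNA of 20 to 23 nt, so levels are compared between miRNAs without a correction for length. The sequences of 8 of the 10 miRNAs called different between the genotypes, of 4 markers of the endothelial, leukocyte and gonadal groups that were not called and of 3 pairs with a shared seed are shown 5′ to 3′, with the seed in capitals. The other two called miRNAs, mmu-miR-143-3p and mmu-miR-145a-5p, are named only.
mmu-miR-199a-5p: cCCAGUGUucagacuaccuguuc
mmu-miR-199a-3p: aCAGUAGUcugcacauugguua
mmu-miR-214-3p: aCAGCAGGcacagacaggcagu
mmu-miR-99a-5p: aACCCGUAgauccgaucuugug
mmu-miR-100-5p: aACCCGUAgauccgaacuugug
mmu-miR-10a-5p: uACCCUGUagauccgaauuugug
mmu-miR-10b-5p: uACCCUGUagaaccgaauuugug
mmu-miR-29a-3p: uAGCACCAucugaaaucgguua
mmu-miR-29b-3p: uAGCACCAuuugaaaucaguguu
mmu-miR-126a-3p: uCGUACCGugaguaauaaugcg
mmu-miR-451a: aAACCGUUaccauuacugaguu
mmu-miR-142a-3p: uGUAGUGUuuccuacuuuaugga
mmu-miR-223-3p: uGUCAGUUugucaaauacccca
mmu-miR-155-5p: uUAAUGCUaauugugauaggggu
mmu-miR-342-3p: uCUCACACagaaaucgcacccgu
mmu-miR-202-5p: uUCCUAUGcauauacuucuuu
mmu-miR-140-3p: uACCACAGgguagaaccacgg

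Among the 26 sequences there were 23 different seeds, and 3 seeds were shared, by mmu-miR-10a-5p and mmu-miR-10b-5p, by mmu-miR-99a-5p and mmu-miR-100-5p, and by mmu-miR-29a-3p and mmu-miR-29b-3p. Counted from the 5′ end, mmu-miR-10b-5p differs from mmu-miR-10a-5p by U12A and mmu-miR-99a-5p differs from mmu-miR-100-5p by A16U. How reads that match both members of such a pair were counted is not given in the sources used here, so the split of counts within these pairs is uncertain. The same holds for mmu-miR-27b-3p and mmu-miR-27a-3p, and for mmu-miR-29a-3p and mmu-miR-29c-3p, which differ by 1 base. It also holds for mmu-miR-152-3p and mmu-miR-148b-3p, which differ by 2 of the bases compared. Mature mmu-miR-199a-3p is identical to mmu-miR-199b-3p, which was not among the miRNA entries. Counts of mmu-miR-199a-3p can therefore include reads from miR-199b.

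The genes lie as follows in GRCm38.p6, with overlapping genes taken from GENCODE M21. Mir199a-2 (mmu-miR-199a-5p at chr1:162217844-162217866, plus strand) and Mir214 (mmu-miR-214-3p at chr1:162223438-162223459, plus strand) both lie in an exon of the non-coding RNA Dnm3os, which runs antisense to Dnm3. A further copy of mmu-miR-199a-5p, from Mir199a-1, is at chr9:21496537-21496559, antisense to an intron of Dnm2. Mir99a (chr16:77598940-77598961) and Mir125b-2 (chr16:77646279-77646300) lie in introns of Mir99ahg. Mir126a (chr2:26591402-26591423) lies within the endothelial gene Egfl7, and Mir140 (chr8:107551288-107551308) within Wwp2, each on the gene's own strand and in an exon of at least 1 annotated transcript. Mir342 (chr12:108658680-108658702) is intronic in Evl, and Mir155 (chr16:84714143-84714165) is exonic in Mir155hg. Mir144 and Mir451a lie next to each other on chromosome 11, at chr11:78073047-78073066 and chr11:78073186-78073207, in no other annotated gene.

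Levels are counts per 100000 miRNA counts of the same library, listed for replicates 1, 2 and 3 of a genotype in this order, and means are given ± SD over its 3 libraries. The libraries held between 146487 and 246030 miRNA counts. These were 18.1% to 19.6% of all counts of the small RNA table in the KO libraries and 4.88% to 5.96% in the WT libraries. On the scale of the whole table all 34 miRNAs together were therefore higher in KO, at 1.39% ± 0.0277 against 0.466% ± 0.0182 of counts. All levels and directions in what follows are relative to the miRNA total. That total differed in its make-up, as mmu-miR-468-5p was at 456 ± 92.3 per 100000 in KO and 5524 ± 594 in WT. Its lower level in KO raises the shares of all other miRNAs there. The meiotic and postmeiotic germ cell miRNAs miR-34b, miR-34c (both arms each) and mmu-miR-449a-5p, taken as the reference for the labelled cell type, made up 33.5% ± 1.99 of miRNA counts in KO and 29.4% ± 1.02 in WT.

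All 34 somatic miRNAs together made up 7.50%, 7.11% and 7.76% of miRNA counts in the KO libraries and 8.19%, 8.06% and 9.13% in the WT libraries. The KO libraries lay below the WT libraries, at 7.46% ± 0.329 against 8.46% ± 0.583. This sum includes the 5 widely expressed miRNAs, at 3.17% in each genotype, so it is not a level of non-germ-cell RNA alone. Per 100 counts of the germ cell miRNAs, the somatic miRNAs numbered 22.3 ± 1.37 in KO and 28.8 ± 2.94 in WT, without overlap. This is no separate check, because the reference itself was a larger share of miRNA counts in KO, 33.5% against 29.4%. Dividing by it lowers KO relative to WT for any group. With trimmed-mean (TMM) factors of the miRNAs the shares overlapped, at 7.80% ± 0.651 and 8.10% ± 0.796. In bulk RNA, fewer cells of a type and less of its RNA per cell cannot be told apart.

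By group, the widely expressed miRNAs made up 3.17% ± 0.126 of miRNA counts in KO and 3.17% ± 0.0680 in WT, the smooth muscle and peritubular miRNAs 1.66% ± 0.242 in KO and 2.40% ± 0.497 in WT, and the fibroblast and mesenchymal miRNAs 1.10% ± 0.0437 and 1.23% ± 0.0907. Endothelial miRNAs made up 0.874% ± 0.0349 in KO and 0.904% ± 0.0108 in WT, leukocyte miRNAs 0.301% ± 0.0276 and 0.321% ± 0.0283, and Sertoli and gonadal miRNAs 0.347% ± 0.0213 and 0.422% ± 0.0221. The erythroid pair made up 0.00410% ± 0.000590 and 0.0102% ± 0.00225. KO libraries lay below all WT libraries in the smooth muscle, Sertoli and erythroid groups, and with TMM factors of the miRNAs in the erythroid group alone. The endothelial, leukocyte, fibroblast and widely expressed groups overlapped between the genotypes. Per germ cell miRNA counts, KO libraries lay below all WT libraries in every group except the leukocyte miRNAs. This scale lowers KO relative to WT in each group, also in the widely expressed miRNAs with their like shares.

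**Figure D1:**
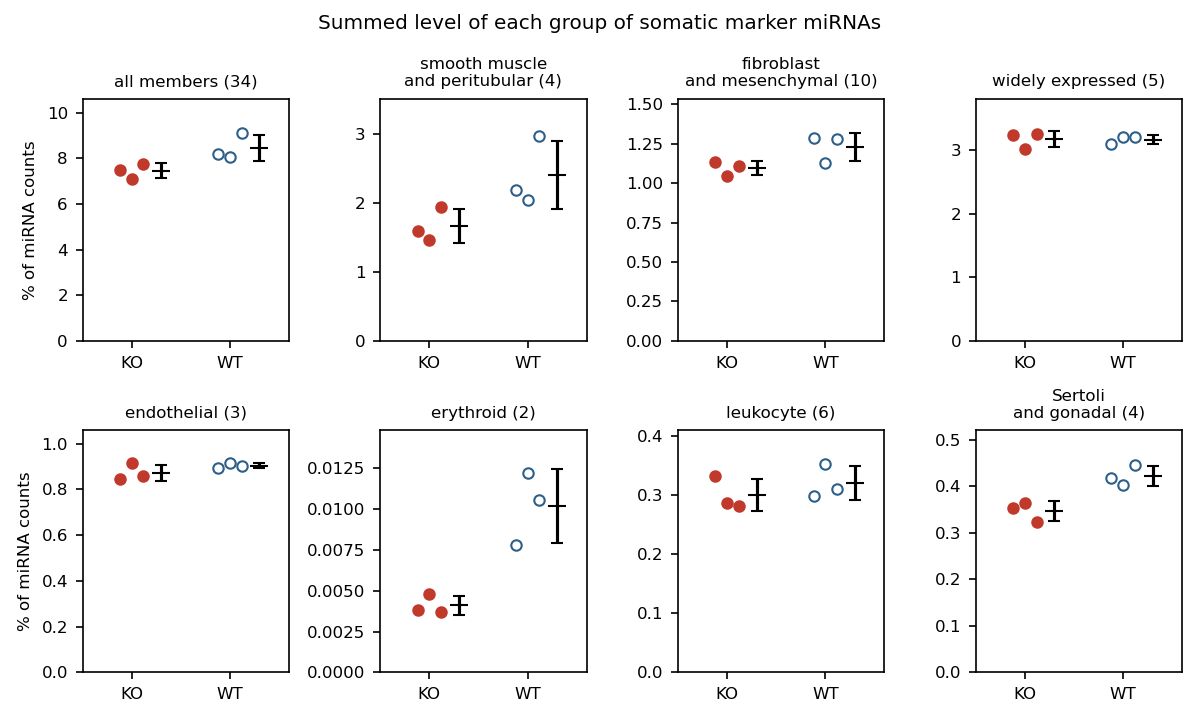
Summed counts of each group of somatic marker miRNAs as a percentage of the miRNA counts of each library (vertical axes start at 0 and differ between panels), with filled points for KO libraries, open points for WT libraries and black bars for the mean ± SD (n = 3). The number of miRNAs is in brackets. All members together lie between 7.11% and 7.76% in KO and between 8.06% and 9.13% in WT.

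Of the 34 miRNAs, 33 passed the filter on low counts and were tested between the genotypes with edgeR's quasi-likelihood test on the whole small RNA table. Relative to the miRNA total, 9 were lower in KO, 1 was higher and 23 did not pass the threshold, an adjusted p of 0.05. On this scale 84.8% of all entries tested passed, 20644 of them lower in KO and 1439 higher. Among the 327 miRNAs tested 14.7% were called lower and 7.34% higher, against 27.3% and 3.03% of the 33 somatic miRNAs. The members were chosen with earlier results of these data known, so this contrast is a description only. The median log2 change was -0.18 over the 33, -0.12 over the 327 miRNAs and -2.29 over all entries tested. Counting libraries rather than tests, KO and WT levels were apart in 10 of the 33 with KO lower (30.3%, against 23.9% of the tested miRNAs) and in 3 with KO higher (9.09%, against 10.7%). The adjustment ran over all entries, most of which passed, so it raised p-values little (edgeR p from 0.0149 to 0.0183 for mmu-miR-145a-5p). With the miRNAs tested and adjusted alone, 8 of the 33 were lower and 0 higher. Of the 327 miRNAs 28 were then lower and 15 higher.

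The 9 lower miRNAs were 2 of the smooth muscle group, 4 of the mesenchymal group, mmu-miR-451a of the erythroid pair, mmu-miR-342-3p of the leukocyte group and mmu-miR-140-3p of the gonadal group. Of the 3 endothelial and 5 widely expressed miRNAs 0 passed with edgeR, and 0 with DESeq2; 1 of these 8, mmu-miR-503-5p, had an unadjusted p under 0.05. The one higher miRNA was mmu-miR-155-5p, of the leukocyte group. Which calls hold depends on the scaling. With TMM factors of the miRNAs 7 were lower and 2 higher, with those of all entries other than piRNAs 2 were lower and 8 higher, and with TMM factors of the whole table, where the filter kept 32 members, 31 were higher and mmu-miR-451a did not pass. The last of these scalings turned the sign of all 9 lower miRNAs, and 8 of them were then called higher.

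**Figure D2:**
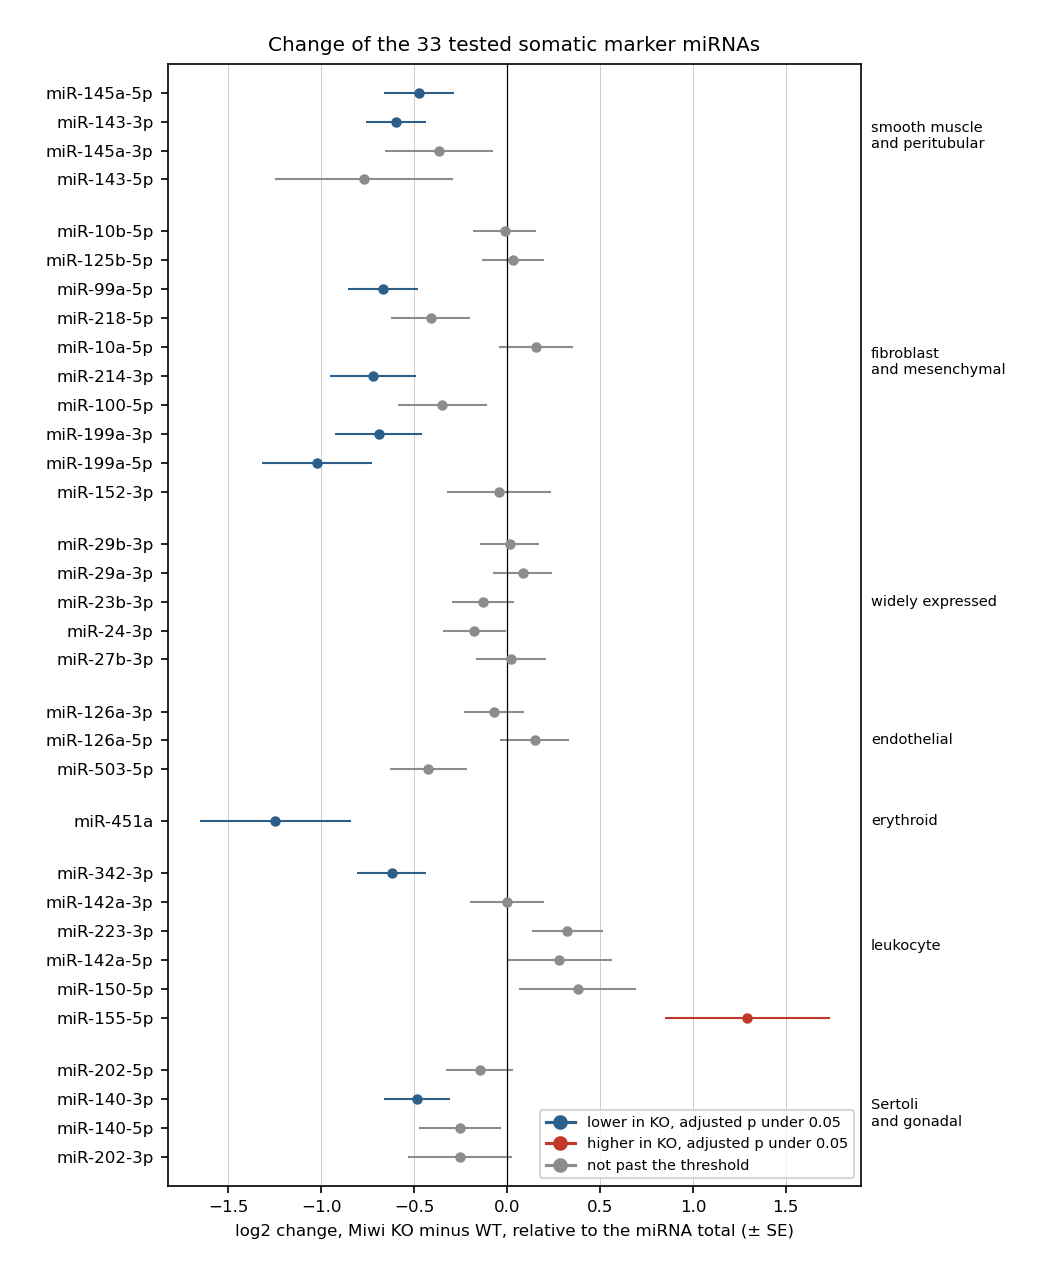
The log2 change (KO minus WT, relative to the miRNA total, horizontal axis) of the 33 tested somatic marker miRNAs by group, with bars for ± SE from edgeR (3 libraries a genotype). The 9 miRNAs called lower lie between -1.25 and -0.47, the called rise of mmu-miR-155-5p lies at 1.29, and the endothelial and widely expressed miRNAs lie between -0.42 and 0.15.

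Of the groups other than the erythroid pair, the smooth muscle and peritubular miRNAs had the largest difference in summed level, a log2 ratio of -0.53, and of -0.40 with overlapping libraries under TMM factors of the miRNAs. miR-143 and miR-145a are made from 1 transcript and are hallmarks of smooth muscle. The level of mmu-miR-143-3p was 774, 718 and 711 in KO, and 1018, 1059 and 1260.4 counts per 100000 miRNA counts in WT. The KO libraries lay close together and all below the WT libraries. The log2 change was -0.60 with an SE of 0.16 (edgeR adjusted p = 0.000794), 1.52-fold lower in KO, and it did not pass with TMM factors of all entries other than piRNAs (-0.26, edgeR adjusted p = 0.138).

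The level of mmu-miR-145a-5p was 806, 726 and 1203 in KO and 1151, 963 and 1688 in WT. The replicate 3 library was the highest of its genotype in both, and KO replicate 3 lay above 2 of the WT libraries. Its log2 change was -0.47 with an SE of 0.19 (edgeR adjusted p = 0.0183). The call was lost when KO replicate 1 was left out (-0.39, edgeR adjusted p = 0.0892), KO replicate 2 (-0.34, adjusted p = 0.139) or WT replicate 3 (-0.21, adjusted p = 0.228). The change was -0.73 when KO replicate 3 was left out. The call was also lost with TMM factors of the miRNAs (edgeR adjusted p = 0.142), with DESeq2 (adjusted p = 0.236) and with the miRNAs tested alone (edgeR adjusted p = 0.182).

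The ratio of mmu-miR-145a-5p to mmu-miR-143-3p counts showed the same libraries apart. It was 1.04, 1.01 and 1.69 in KO and 1.13, 0.909 and 1.34 in WT, highest in replicate 3 of each genotype. The genotypes overlapped in it, at 1.25 ± 0.385 in KO and 1.13 ± 0.215 in WT. The minor arms, mmu-miR-143-5p at 4.00 ± 3.79 in KO and 5.95 ± 1.09 in WT and mmu-miR-145a-3p at 14.6 ± 4.02 and 19.2 ± 0.424, did not pass. Their log2 changes were -0.77 with an SE of 0.48 and -0.37 with an SE of 0.29 (edgeR adjusted p = 0.131 and 0.232). For mmu-miR-143-5p, counted 58 times in all 6 libraries together, single libraries moved the value, which was -1.63 without KO replicate 2 (edgeR adjusted p = 0.0103) and -0.20 without KO replicate 3.

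In the mesenchymal group the lower miRNAs were those of the Dnm3os transcript and mmu-miR-99a-5p. miR-199a and miR-214 are typical of fibroblasts and other mesenchyme. The level of mmu-miR-199a-5p was 8.52, 11.6 and 16.4 in KO and 26.7, 29.1 and 19.5 in WT, without overlap. Its log2 change was -1.02 with an SE of 0.30 (edgeR adjusted p = 0.00166), 2.03-fold lower in KO. It passed in the same direction under each alternative tried except TMM factors of the whole table, where it was 0.73. The counts behind it are few, 230 in all 6 libraries.

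Levels of mmu-miR-199a-3p, whose counts can include reads from miR-199b, were 22.2, 22.5 and 31.6 in KO and 38.4, 44.4 and 41.5 in WT. Those of mmu-miR-214-3p were 27.7, 30.7 and 23.8 in KO and 37.8, 48.0 and 48.4 in WT. In both, each KO library lay below each WT library. The log2 change of mmu-miR-199a-3p was -0.69 with an SE of 0.24 (edgeR adjusted p = 0.00667), and that of mmu-miR-214-3p was -0.72 with an SE of 0.23 (edgeR adjusted p = 0.00384). Neither passed with TMM factors of all entries other than piRNAs (-0.35 and -0.38), and mmu-miR-199a-3p did not pass with DESeq2 (adjusted p = 0.0679).

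The ratio of mmu-miR-199a-3p to mmu-miR-199a-5p counts was 2.16 ± 0.385 in KO and 1.70 ± 0.374 in WT. That of mmu-miR-214-3p to mmu-miR-199a-5p was 2.45 ± 0.916 and 1.85 ± 0.559. Both ratios overlapped between the genotypes. The first is no clean ratio of the arms of miR-199a, since its 3p counts can include reads from miR-199b. mmu-miR-199b-5p, a paralog from another gene and no member of the group, was also lower, at 9.01 in KO and 15.4 in WT on average, a log2 change of -0.78 (edgeR adjusted p = 0.0275).

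mmu-miR-99a-5p belongs to the miR-99 and miR-100 family, whose genes are transcribed with let-7 and miR-125b genes. Its level was 149, 114 and 109.6 in KO and 192, 159 and 241 in WT. The genotypes did not overlap, although the lowest WT library and the highest KO library were close. The log2 change was -0.67 with an SE of 0.19 (edgeR adjusted p = 0.00124), and -0.33 with TMM factors of all entries other than piRNAs, where it did not pass.

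mmu-miR-100-5p, which differs from mmu-miR-99a-5p by 1 base, averaged 33.3 ± 7.32 in KO and 43.0 ± 13.9 in WT, with overlap, and did not pass (log2 change -0.35, edgeR adjusted p = 0.171). It passed without WT replicate 2 (-0.57, edgeR adjusted p = 0.0339). The ratio of mmu-miR-99a-5p to mmu-miR-100-5p was 3.80 ± 0.688 in KO and 4.81 ± 1.20 in WT and overlapped. mmu-miR-125b-5p, made partly from the transcript of miR-99a, was at 369 ± 28.4 in KO and 361 ± 18.5 in WT (log2 change 0.03 with an SE of 0.17, edgeR adjusted p = 0.853). mmu-let-7c-5p, from that transcript and others and no member of the group, was at 272 in KO and 248 in WT on average (log2 change 0.13, edgeR adjusted p = 0.486). Of these 4 miRNAs, mmu-miR-99a-5p alone passed relative to the miRNA total with all 6 libraries.

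The most abundant mesenchymal miRNA, mmu-miR-10b-5p of the Hoxd cluster, was at 361, 369 and 404 in KO and 451, 328 and 367 in WT. The WT libraries spanned the KO libraries, and the log2 change was -0.01 with an SE of 0.17 (edgeR adjusted p = 0.943). Its close relative mmu-miR-10a-5p was at 62.6 ± 7.26 in KO and 56.2 ± 2.89 in WT, and mmu-miR-152-3p, from an intron of Copz2, at 19.5 ± 5.40 and 20.02 ± 3.92, and neither passed. mmu-miR-218-5p, from introns of Slit2 and Slit3, was at 44.5 ± 10.5 and 58.3 ± 5.23, with a log2 change of -0.41 with an SE of 0.21 (edgeR adjusted p = 0.0662). It passed when miRNAs were scaled to the germ cell miRNAs (-0.59, edgeR adjusted p = 0.0178). Without KO replicate 2 it also passed (-0.59, edgeR adjusted p = 0.0222), and without KO replicate 3 it was -0.26.

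**Figure D3:**
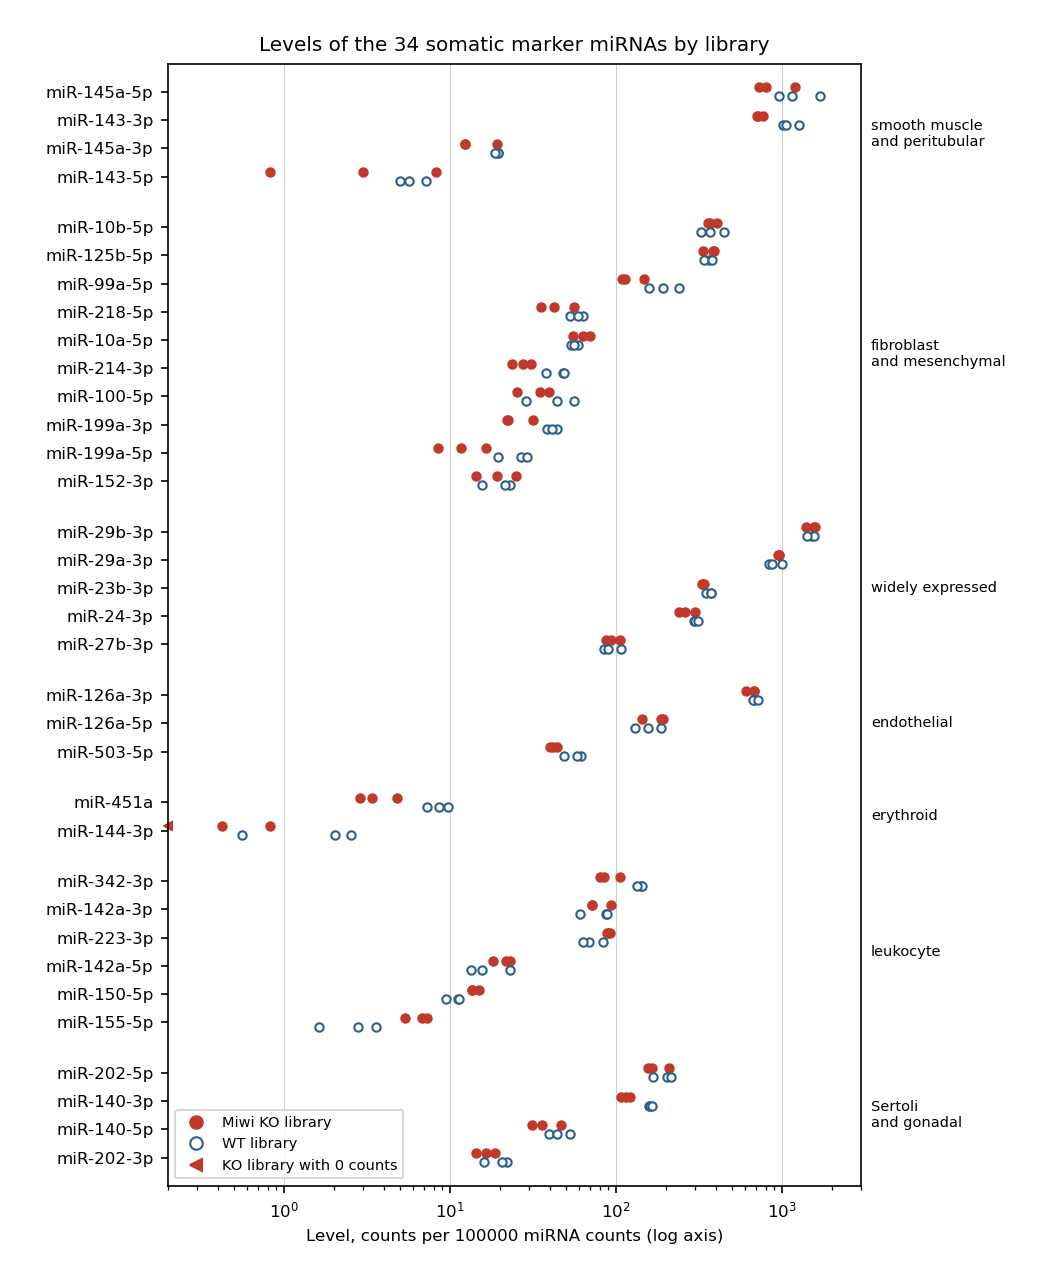
Level of each of the 34 miRNAs in each library in counts per 100000 miRNA counts (log axis), by group and in the order of the WT mean, with filled points for KO and open points for WT libraries. A triangle at the left edge is a library with 0 counts. mmu-miR-29b-3p lies between 1397 and 1578 in every library, and the 2 erythroid miRNAs lie below 10 in every library.

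The widely expressed group held the highest level of all 34, and none of its 5 miRNAs passed. miR-29a and miR-29b are made from shared transcripts in many differentiated cells and repress collagen mRNAs. The level of mmu-miR-29b-3p was 1568, 1397 and 1578 in KO and 1518, 1556 and 1428 in WT, which placed it 14th by mean level among the 1900 miRNA entries. The libraries of the genotypes were interspersed, and the log2 change was 0.01 with an SE of 0.16 (edgeR adjusted p = 0.937). mmu-miR-29a-3p was at 959 ± 14.0 in KO and 905 ± 89.6 in WT (log2 change 0.08, edgeR adjusted p = 0.628).

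miR-23b, miR-27b and miR-24 are made from 1 transcript, and miR-24 also from the related miR-23a transcript. Levels were 334 ± 5.23 in KO and 366 ± 13.3 in WT for mmu-miR-23b-3p, 95.2 ± 9.30 and 93.9 ± 12.2 for mmu-miR-27b-3p, and 267 ± 30.8 and 302 ± 9.27 for mmu-miR-24-3p. All KO libraries lay below the WT libraries for mmu-miR-23b-3p, by little, and the other two overlapped. The log2 changes were -0.13, 0.02 and -0.18 (edgeR adjusted p = 0.464, 0.916 and 0.330). mmu-miR-23a-3p and mmu-miR-27a-3p, of the related transcript, had log2 changes of 0.06 and -0.29 and did not pass (edgeR adjusted p = 0.753 and 0.153).

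Among endothelial miRNAs, mmu-miR-126a-3p, which is abundant in vessel endothelium, was at 612, 684 and 676 in KO and 677, 672 and 723 in WT. The libraries overlapped, and the log2 change was -0.07 with an SE of 0.16 (edgeR adjusted p = 0.679). The other arm, mmu-miR-126a-5p, was at 174 ± 26.4 in KO and 157 ± 28.3 in WT (log2 change 0.15, edgeR adjusted p = 0.451). The ratio of the arms was 3.84 ± 0.771 in KO and 4.51 ± 0.997 in WT, with overlap. mmu-miR-503-5p, of the miR-322 and miR-503 cluster on the X chromosome, which is also made outside endothelium, was at 43.9, 41.6 and 39.8 in KO and 61.7, 58.2 and 48.8 in WT. Its libraries did not overlap, but the change of -0.42 with an SE of 0.21 missed the threshold (edgeR adjusted p = 0.0538). It passed without WT replicate 3 (-0.52, edgeR adjusted p = 0.0146), and also when the 10 most abundant miRNAs were left out of the total (edgeR adjusted p = 0.0447). Its cluster mate mmu-miR-322-5p had a log2 change of -0.23 and did not pass (edgeR adjusted p = 0.301).

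The erythroid miRNAs, which are very abundant in red blood cells, were near the limit of detection. mmu-miR-451a was counted 8, 7 and 7 times in KO and 13, 19 and 21 times in WT, or at 3.41, 4.78 and 2.87 per 100000 miRNA counts in KO against 7.23, 9.69 and 8.54 in WT. KO and WT libraries did not overlap. The log2 change was -1.25 with an SE of 0.41 (edgeR adjusted p = 0.00498), and it did not pass with DESeq2 (-1.12, adjusted p = 0.0519). mmu-miR-144-3p, from the same transcript, was counted 1, 0 and 2 times in KO and 1, 5 and 5 times in WT and was not tested. In KO replicate 2, 0 counts allow a level of up to 2.05 per 100000 miRNA counts (3 counts, counting error only). Relative to mmu-miR-126a-3p, at 658 ± 39.5 in KO and 691 ± 28.4 in WT, both erythroid miRNAs were low in every library.

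Leukocyte miRNAs did not move together. miR-142a, made in all blood cell lineages, had its 3p arm at 93.3, 71.7 and 71.8 in KO and 60.6, 87.7 and 88.6 in WT, with a log2 change of -0.0016 (edgeR adjusted p = 0.994). Its 5p arm was at 21.0 ± 2.59 in KO and 17.3 ± 5.00 in WT (log2 change 0.28, edgeR adjusted p = 0.353). Both arms overlapped between the genotypes.

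mmu-miR-223-3p, a miRNA of neutrophils, monocytes and macrophages, was at 89.5, 92.2 and 88.2 in KO and 69.0, 83.7 and 63.0 in WT. All KO libraries lay above the WT libraries, but the change of 0.32 with an SE of 0.19 missed the threshold (edgeR adjusted p = 0.113). TMM factors of the miRNAs brought it past the threshold (0.45, edgeR adjusted p = 0.0370), as did DESeq2 (0.46, adjusted p = 0.0497). mmu-miR-150-5p, a miRNA of mature lymphocytes, was at 14.1 ± 0.827 in KO and 10.7 ± 1.07 in WT, also without overlap, and did not pass (0.38 with an SE of 0.31, edgeR adjusted p = 0.256).

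mmu-miR-155-5p, which is induced in activated lymphocytes and macrophages, was the one miRNA called higher in KO. It was counted 17, 10 and 13 times in KO and 5, 7 and 4 times in WT, at levels of 7.24, 6.83 and 5.34 against 2.78, 3.57 and 1.63. The KO libraries lay above the WT libraries, and the log2 change was 1.29 with an SE of 0.44 (edgeR adjusted p = 0.00717), 2.45-fold higher in KO. With 56 counts in all, the call was lost without WT replicate 3 (0.99, edgeR adjusted p = 0.0595) and with the miRNAs tested alone (edgeR adjusted p = 0.0623).

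mmu-miR-342-3p, from an intron of Evl and known from lymphocytes among other cells, went the other way. Its level was 106, 79.9 and 85.0 in KO and 141, 143.3 and 133 in WT, without overlap. The log2 change was -0.62 with an SE of 0.19 (edgeR adjusted p = 0.00227), and -0.29 with TMM factors of all entries other than piRNAs, where it did not pass (edgeR adjusted p = 0.138). Of the 6 leukocyte miRNAs, 1 was thus called lower and 1 higher, and 4 did not pass.

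In the Sertoli and gonadal group mmu-miR-140-3p was lower in KO and the other 3 did not pass. miR-140 is best known from cartilage and has been described in the developing testis, and miR-202 is a miRNA of gonads. The level of mmu-miR-140-3p was 122, 108 and 116 in KO and 159, 159.7 and 166 in WT, a tight set in each genotype. The log2 change was -0.48 with an SE of 0.18 (edgeR adjusted p = 0.0120). It did not pass with TMM factors of the miRNAs (-0.36, edgeR adjusted p = 0.0847), nor with DESeq2 (-0.36, adjusted p = 0.0900).

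mmu-miR-140-5p averaged 38.0 ± 7.69 in KO and 45.6 ± 6.87 in WT, with overlap (log2 change -0.25, edgeR adjusted p = 0.282). The ratio of the miR-140 arms, 3p over 5p, was 3.09 ± 0.413 in KO and 3.59 ± 0.520 in WT and overlapped. mmu-miR-202-5p, the most abundant of the group, was at 166, 208 and 157 in KO and 203, 168 and 215 in WT. The libraries were interspersed, with a log2 change of -0.15 with an SE of 0.18 (edgeR adjusted p = 0.445). mmu-miR-202-3p was at 16.5 ± 2.19 in KO and 19.6 ± 3.06 in WT (log2 change -0.25, edgeR adjusted p = 0.396).

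Other arms and cluster mates of these miRNAs gave few further values. Of 34 such names, 33 were analysed here and 9 passed the filter, of which mmu-miR-199b-5p was lower and 8 did not pass. The median log2 change of the 9 was -0.23. Of the 5 germ cell reference miRNAs, 3 were called higher in KO relative to the miRNA total and the other two did not pass. These were mmu-miR-34c-3p at 0.71, mmu-miR-34b-3p at 0.55 and mmu-miR-449a-5p at 0.44 (edgeR adjusted p = 0.000217, 0.00388 and 0.0106). Other miR-34 and miR-449 miRNAs, left out of the reference, went both ways. Called lower were mmu-miR-34a-3p (-1.04), mmu-miR-34a-5p (-0.56) and mmu-miR-449b (-0.70, edgeR adjusted p = 0.0171, 0.00232 and 0.00270). mmu-miR-449a-3p was called higher (1.05, edgeR adjusted p = 0.0164), while mmu-miR-449c-5p (-0.61) and mmu-miR-449c-3p (-0.02) did not pass. Scaled to the counts of the 5 germ cell miRNAs, 12 of 32 tested somatic miRNAs were lower in KO and the rest did not pass, at a median log2 change of -0.39.

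The order of the somatic miRNAs was much alike in both genotypes. Across the 34 miRNAs, log2 mean levels in KO and WT had Pearson's r of 0.978, a description over miRNAs that share libraries and a total. In both genotypes mmu-miR-29b-3p was highest. In WT it was followed by mmu-miR-145a-5p, mmu-miR-143-3p, mmu-miR-29a-3p and mmu-miR-126a-3p. The WT libraries of mmu-miR-145a-5p, from 963 to 1688, overlapped in range those of mmu-miR-29b-3p, mmu-miR-143-3p and mmu-miR-29a-3p, although mmu-miR-145a-5p was above mmu-miR-29a-3p within each of the 3 WT libraries. The WT ranges of mmu-miR-143-3p, mmu-miR-29a-3p and mmu-miR-126a-3p did not overlap. In KO mmu-miR-29a-3p came next, followed by mmu-miR-145a-5p, mmu-miR-143-3p and mmu-miR-126a-3p, and the KO libraries of mmu-miR-145a-5p, from 726 to 1203, overlapped those of mmu-miR-29a-3p and mmu-miR-143-3p. These 5 miRNAs were the ones with mean levels over 500 in both genotypes, and 4 of the 34, mmu-miR-143-5p, mmu-miR-451a, mmu-miR-144-3p and mmu-miR-155-5p, had mean levels under 10 in both. For comparison mmu-miR-34b-5p, the most abundant germ cell miRNA of the reference, had 20959 ± 1912 in KO and 19604 ± 688 in WT.

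**Figure D4:**
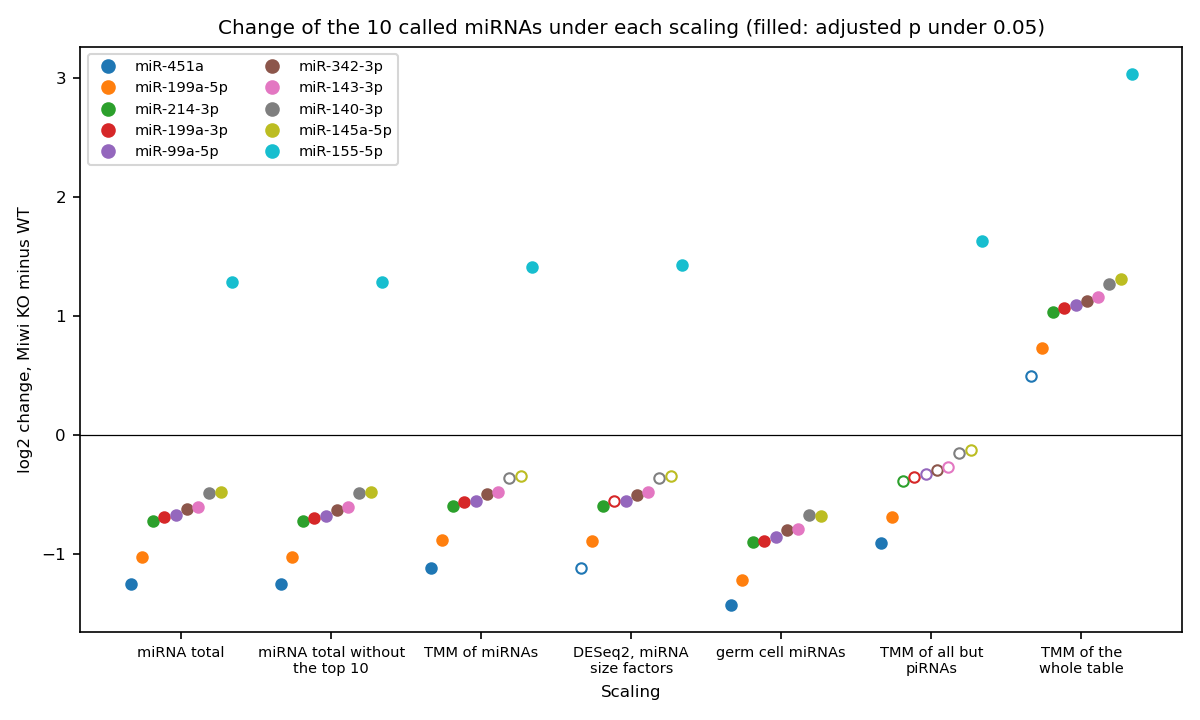
The log2 change (KO minus WT, vertical axis) of the 10 miRNAs that passed relative to the miRNA total, under 7 scalings or tests (horizontal axis), filled where the adjusted p is under 0.05. mmu-miR-155-5p was filtered out when scaled to the germ cell miRNAs. The order of the 10 is nearly the same under each scaling, while the position of 0 shifts. All 10 lie above 0 when TMM factors come from the whole table.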

How the data were processed

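Small RNAs of round spermatids were counted by the authors in 3 Miwi KO and 3 WT libraries. The deposited values are raw counts per reference small RNA, made with featureCounts v1.5.0-p2 per the file headers. Cutadapt, DESeq2 and build mm9 are named in the submitters' processing notes, while the sources used here do not name the aligner or how it treated reads with several matches. The piRNA cluster table was not used here. Libraries held 747443 to 5037232 counts in the small RNA table, of which 146487 to 246030 were miRNA counts. Counts of a few reads limit the erythroid miRNAs and miR-155-5p.

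Every entry passing edgeR's filterByExpr (minimum count 10, minimum total 15; 26032 entries) was tested two-sided by the quasi-likelihood method of edgeR 4.0.16 (R 4.3.3), with the summed miRNA counts as library size, no block and Benjamini-Hochberg adjustment over all entries. SEs were derived from the F statistic. The procedure was tested on simulated data in which few entries changed, equally in both directions. Most entries passed in the real data, so that test cannot give the error rate of these calls. Alternatives were other scalings (among them TMM, trimmed mean of M-values), DESeq2 1.42.0 with size factors of the miRNAs, other filters, miRNAs alone, a replicate block and libraries left out. Replicate libraries differed by more than counting noise. The members, lists and tests were chosen with earlier results of these data known. By the rule for named miRNAs, values in every library are given for called members, the top member of each group and 8 defining markers. Added after their values were seen were miR-503-5p, miR-468-5p, the counts of miR-144-3p and the called germ cell miRNAs. So were the miR-34 and miR-449 miRNAs outside the reference and the cluster mates that did not pass. Python 3.11.15 was used for tables.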

Additional observations from a re-analysis of the deposited data

How the results depend on the processing

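The number of calls and the direction of many changes depended on what miRNA counts were scaled to. Each of the 9 lower miRNAs kept its sign under every alternative except TMM factors of the whole table. The rise of mmu-miR-155-5p kept its sign in each alternative that tested it. With TMM factors of the miRNAs 7 of the 34 were lower and 2 higher, and mmu-miR-10b-5p (0.11), mmu-miR-152-3p (0.080), mmu-miR-126a-3p (0.055) and mmu-miR-142a-3p (0.12) changed sign. DESeq2 called 5 lower and 2 higher and turned the same 4 miRNAs, to 0.11, 0.079, 0.058 and 0.12. TMM factors of all entries other than piRNAs left 2 lower and 8 higher, and turned mmu-miR-10b-5p (0.30), mmu-miR-152-3p (0.30), mmu-miR-23b-3p (0.20), mmu-miR-24-3p (0.16), mmu-miR-126a-3p (0.25), mmu-miR-142a-3p (0.34), mmu-miR-202-5p (0.18), mmu-miR-202-3p (0.088) and mmu-miR-140-5p (0.089). TMM factors of the whole table moved the median of all tested miRNAs to 1.64, with 0 lower and 31 higher. The reversed log2 changes were then 1.16 and 1.31 for mmu-miR-143-3p and mmu-miR-145a-5p, 1.40 for mmu-miR-145a-3p, 0.73 and 1.07 for mmu-miR-199a-5p and mmu-miR-199a-3p, 1.03 for mmu-miR-214-3p, 1.73 for mmu-miR-10b-5p, 1.41 and 1.10 for mmu-miR-100-5p and mmu-miR-99a-5p, 1.34 for mmu-miR-218-5p and 1.71 for mmu-miR-152-3p. They were 1.62 and 1.58 for mmu-miR-23b-3p and mmu-miR-24-3p, 1.68 and 1.32 for mmu-miR-126a-3p and mmu-miR-503-5p, 0.50 for mmu-miR-451a, 1.76 and 1.13 for mmu-miR-142a-3p and mmu-miR-342-3p, 1.61 and 1.504 for mmu-miR-202-5p and mmu-miR-202-3p, and 1.27 and 1.504 for mmu-miR-140-3p and mmu-miR-140-5p. Scaled to the germ cell miRNAs, where mmu-miR-155-5p was filtered out, 0 were higher. On that scale mmu-miR-10a-5p (-0.024), mmu-miR-125b-5p (-0.15), mmu-miR-27b-3p (-0.17), mmu-miR-29a-3p (-0.10), mmu-miR-29b-3p (-0.17) and mmu-miR-126a-5p (-0.023) changed sign. With a minimum count of 30, mmu-miR-155-5p was filtered out and 0 were higher. With miRNAs alone it was tested and 0 were higher, and leaving out the 10 most abundant miRNAs gave 10 lower and 1 higher. Without one library at a time the lower count ranged from 8 to 10 and the higher count from 0 (without WT replicate 3) to 1.

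With the replicate block 11 were lower and 1 higher, all 10 calls were kept and mmu-miR-218-5p and mmu-miR-503-5p were added, and mmu-miR-142a-3p turned to 0.0041. Same-numbered libraries of the genotypes had deviations correlated at 0.0219, 0.0735 and 0.113 over all entries tested. Over the miRNAs alone these correlations were -0.138, 0.228 and 0.123, against -0.253 to 0.102 for libraries of unlike number. No label ties the numbers to a shared animal or day. Without both replicate 3 libraries 10 were lower and 1 higher, and mmu-miR-152-3p (0.22), mmu-miR-27b-3p (-0.10), mmu-miR-29b-3p (-0.051), mmu-miR-142a-3p (0.16) and mmu-miR-202-5p (0.0066) changed sign. Without single libraries, sign changes were limited to mmu-miR-10b-5p (-0.11 to 0.12), mmu-miR-125b-5p (-0.0042 to 0.095), mmu-miR-29b-3p (-0.021 to 0.068), mmu-miR-142a-3p (-0.16 to 0.091), mmu-miR-152-3p (-0.29 to 0.16) and mmu-miR-27b-3p (-0.061 to 0.13), none of them called.

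Summed levels turned with the total of the small RNA table as the scale, to log2 ratios of 1.58 for all 34, 1.24 for smooth muscle, 1.59 for mesenchymal, 1.70 for endothelial, 0.44 for erythroid, 1.65 for leukocyte and 1.48 for gonadal miRNAs, while that of the widely expressed miRNAs, 0.0013 relative to the miRNA total, was 1.75. Per germ cell miRNA counts the ratios were -0.37 for all 34, -0.35 for mesenchymal, -0.18 for widely expressed, -0.23 for endothelial, -0.47 for gonadal and -0.27 for leukocyte miRNAs. With TMM factors of the miRNAs they were -0.056, -0.041, 0.13, 0.077, -0.16 and 0.033 in the same order, the last against -0.094 for leukocyte miRNAs relative to the miRNA total. Without the most abundant member of a group they were 0.018 for endothelial, -2.04 for erythroid, 0.21 for leukocyte and -0.42 for gonadal miRNAs. The shift with the table total follows from the share of miRNA counts in it, 18.1% to 19.6% in KO and 4.88% to 5.96% in WT. Why these shares differed was not tested. Depth limits mmu-miR-144-3p, mmu-miR-143-5p, mmu-miR-155-5p and mmu-miR-451a, which had mean levels under 10 in both genotypes, where 3 counts are a level of 1.22 to 2.05.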
